A study of Mus musculus with 23 samples.

Results

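The genes described here encode subunits of the CRL4 ubiquitin ligases. They were chosen by symbol, as the entries Ddb1, Cul4a, Cul4b, Rbx1, Ddb2 and Dcaf13 of the table of expression values, which makes 6 genes of the 24506 in the table. All 6 genes had an FPKM (fragments per kilobase of transcript, scaled to the mapped fragments of the library) of at least 1 in at least 2 libraries and so entered the test, with 13776 genes in all. The study asked what the loss of Cxxc1 does to the transcripts of mouse oocytes and early embryos. Cxxc1 encodes CFP1, a CXXC zinc-finger protein of the SETD1 complexes, which methylate histone H3 at lysine 4.

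The 23 libraries formed 8 groups. Germinal vesicle (GV) oocytes, which rest in the first meiotic prophase, came from 3-week wild-type females, 3-month wild-type females, 3-week Cxxc1fl/fl;Zp3-Cre females and 3-month Cxxc1fl/fl;Gdf9-Cre females. Both embryo stages, zygotes and 2-cell embryos, had wild-type mothers or Cxxc1fl/fl;Zp3-Cre mothers, all mated with wild-type males, so that an embryo of a deletion female carries an intact paternal allele. Zp3-Cre is active in growing oocytes, and Gdf9-Cre from an earlier follicle stage. The groups had 3 libraries each, and 2 for wild-type 2-cell embryos. No floxed allele or Cre is named in the labels of the wild-type females, and the age of the females that gave embryos is not stated. Separate animals behind the libraries are not stated either, so a p-value here covers the spread among these samples alone, and that spread may be technical.

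CRL4 ligases are built on a cullin scaffold, CUL4A or CUL4B. At one end of the scaffold the RING protein RBX1 brings in the ubiquitin-conjugating enzyme, and at the other the adaptor DDB1 holds an exchangeable substrate receptor of the DCAF family, which picks the protein to be ubiquitinated. DDB2 is the receptor for DNA damaged by ultraviolet light. DCAF13 is a receptor that in the mouse targets the H3K9 methyltransferase SUV39H1, and it is also a nucleolar protein of 18S ribosomal RNA processing. In mouse oocytes, DDB1 is known to be needed for the survival of follicles and for development after fertilisation.

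The CXXC domain of CFP1 binds CpG dinucleotides that are not methylated, so the promoter sequences of the cullin pair are shown for their CpG content. RefSeq (GRCm38.p6) gave a promoter for 4 of the 6 genes, Ddb1, Cul4a, Cul4b and Rbx1. The sequences are the 250 bases before the annotated start of each gene, written 5′ to 3′ on the strand of the gene, with each CpG (the letters CG, which read the same on both strands and overlap no other motif searched) in capitals. The first lies at chr8:13105373-13105622 on the plus strand and the second at chrX:38576197-38576446 on the minus strand.
Cul4a: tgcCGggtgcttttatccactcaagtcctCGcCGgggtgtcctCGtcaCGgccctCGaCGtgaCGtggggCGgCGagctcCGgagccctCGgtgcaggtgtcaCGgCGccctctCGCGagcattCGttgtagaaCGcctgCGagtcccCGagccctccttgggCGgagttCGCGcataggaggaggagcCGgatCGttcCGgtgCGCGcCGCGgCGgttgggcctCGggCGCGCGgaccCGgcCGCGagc
Cul4b: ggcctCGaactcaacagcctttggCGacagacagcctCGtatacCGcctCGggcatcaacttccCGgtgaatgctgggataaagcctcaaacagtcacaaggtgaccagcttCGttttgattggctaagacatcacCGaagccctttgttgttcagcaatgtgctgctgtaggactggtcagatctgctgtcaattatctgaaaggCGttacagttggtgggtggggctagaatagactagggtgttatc
The Cul4a promoter held 38 CpG at a G+C content of 71.6%, and 1.88% of the 32851 mouse promoters of the same length in RefSeq held at least as many. That of Cul4b held 9 CpG at 50.8% G+C, a number reached by 40.3% of promoters. Ddb1 had 19 CpG and Rbx1 24, against a median of 6 over all promoters, of which 92.1% held at least 1. These counts describe the letters and say nothing of methylation or of CFP1 binding in these cells.

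Cxxc1 itself fell in each deletion group, from 39.8 to 1.13, from 36.7 to 0.924, from 27.95 to 1.34 and from 10.5 to 1.98 FPKM on average in 3-week oocytes, 3-month oocytes, zygotes and 2-cell embryos. Of 10 oocyte markers, 1 was under 1 FPKM in both wild-type 2-cell libraries and none was so low throughout any other group. Their sum moved with genotype. It was at 6665 to 7463 FPKM in Zp3-Cre and 9148 to 9259 in 3-week wild-type oocytes, and at 7163 to 7381 in Gdf9-Cre and 8599 to 8828 in 3-month wild-type oocytes. It was at 4039 to 4693 in deletion and 3290 to 3577 in wild-type zygotes, and at 2644 to 3033 in deletion and 940 and 1090 in wild-type 2-cell embryos. Deletion 2-cell library 3 stood apart. Its correlation with another library of its group went down to 0.936, against 0.983 between those, its summed stroma and endothelium markers (7 genes) reached 207 FPKM against 14.6 and 14.7, and its Cxxc1 stood at 4.16 FPKM. Summed granulosa markers (12 genes) were at 90.5 to 172 FPKM in 3-month Gdf9-Cre oocytes and 35.4 to 38.6 in their wild type, and summed oviduct epithelium markers (5 genes) at 27.3 to 43.2 against 2.34 to 3.18. The summed 2-cell activation markers (8 genes) were at 267 and 334 FPKM in wild-type and 59.5 to 61.5 in deletion 2-cell embryos. The part of such cells, of the oocyte markers' difference or of a shift in stage in the values below was not tested. In bulk samples, fewer cells of a type and less RNA per cell cannot be told apart, and FPKM is relative to the total of its library. The median of all genes in the deletion comparisons was 0.09, 0.20, 0.22 and 0.16 on the log2 scale, in the order above. Median-of-ratios scaling moved these medians by -0.08, -0.17, -0.26 and -0.18, and quantile normalization by -0.09, -0.22, -0.29 and 0.02.

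Loss of Cxxc1 went with different changes of the CRL4 genes at each stage. Cul4b fell in both oocyte groups and in zygotes and rose in 2-cell embryos. Ddb2 rose in 3-month oocytes and in 2-cell embryos, Rbx1 in 3-month oocytes, and Cul4a and Ddb1 in 2-cell embryos, while Ddb1 fell in zygotes. Median-of-ratios scaling and quantile normalization ended the 2-cell call of Ddb1 and turned Cul4a in zygotes, which was called higher in the deposited values, to below 0. Dcaf13 was called in none of the 4 comparisons.

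A gene was called where limma's moderated test on log2(FPKM + 1) gave a Benjamini-Hochberg adjusted p under 0.05 over all 13776 genes. In 3-week oocytes 1 of the 6 CRL4 genes was called (0 higher, 1 lower), against 29.6% of all genes (18.3% higher, 11.3% lower). In 3-month oocytes 3 were called (2 higher, 1 lower), against 49.5% (34.2% higher, 15.2% lower). In zygotes 3 were called (1 higher, 2 lower), against 46.7% (35.3% higher, 11.4% lower). In 2-cell embryos, where the oocyte marker sum was higher after deletion too, 4 were called, all higher, against 66.5% of all genes (37.1% higher, 29.4% lower). The share of the CRL4 genes called lay near that of all genes in these comparisons and is not in itself a result about them. The scalings turned the split of all calls from mostly higher to mostly lower in both oocyte comparisons and in zygotes. The median log2 fold change of the 6 was 0.19 in 3-week and 0.19 in 3-month oocytes, 0.01 in zygotes and 0.61 in 2-cell embryos.

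**Figure D1:**
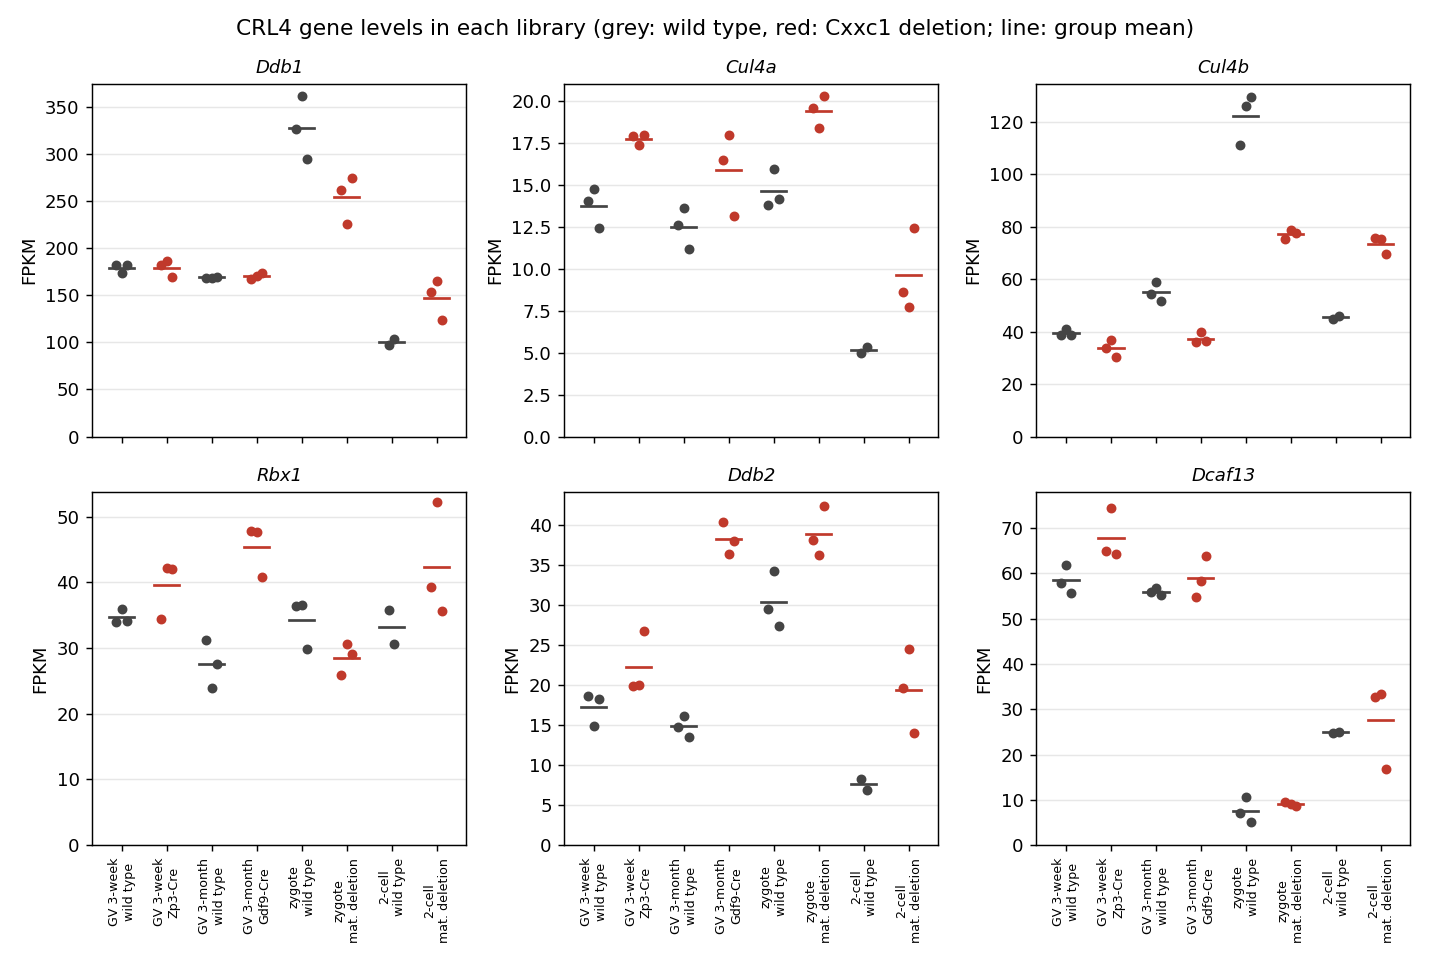
FPKM of the 6 CRL4 genes (vertical axis, 1 panel per gene) in each of the 23 libraries by group, grey for wild type and red for Cxxc1 deletion, with a line at the group mean. Ddb1 and Cul4b peak in wild-type zygotes, Dcaf13 is at its lowest in zygotes of both genotypes, and deletion zygotes and deletion 2-cell embryos hold nearly the same Cul4b level.

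Ddb1, the adaptor of the ligase, was the most abundant CRL4 transcript in every group. Wild-type 3-week oocytes held 182, 174 and 182 FPKM of Ddb1, and Zp3-Cre oocytes 182, 186 and 169. The 3-month oocytes held 169, 168 and 169.5 in the wild type and 168, 171 and 173 after Gdf9-Cre deletion. Both pairs of oocyte groups overlapped, with log2 fold changes of -0.00074 ± 0.0948 and 0.01 ± 0.0948 (SE). Zygotes stood higher, at 326, 361 and 294 FPKM in the wild type and 261, 226 and 275 after maternal deletion. The libraries of the zygote groups were apart, as for 55% of all genes, and Ddb1 fell with deletion by 0.36 on the log2 scale (SE 0.0948, adjusted p = 0.00347). In 2-cell embryos the order was turned, with 97.0 and 103 FPKM in the wild type and 153, 165 and 124 after deletion. Each deletion library was above both wild-type libraries, as groups were apart for 68.9% of all genes, and Ddb1 rose by 0.54 ± 0.106 (SE, adjusted p = 0.000151). Without deletion library 3 the 2-cell value was 0.66. Median-of-ratios scaling gave 0.27 (adjusted p = 0.105) and quantile normalization 0.20 (adjusted p = 0.0794), which ended that call, while the fall in zygotes was called under both.

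Over the groups, mean Ddb1 ran from wild-type zygotes (327 ± 33.4 FPKM, SD, n = 3) through deletion zygotes (254 ± 25.1) and the 4 oocyte groups (169 to 179) to deletion 2-cell embryos (147 ± 20.8) and wild-type 2-cell embryos (100.1 ± 4.33, n = 2). Neighbours in this order whose libraries overlapped were the 3-week Zp3-Cre and 3-week wild-type oocytes, and the 3-month Gdf9-Cre and 3-month wild-type oocytes.

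Cul4b, the X-linked scaffold, was the CRL4 gene that was called in every deletion comparison. The 3-week oocytes held 38.7, 41.0 and 38.9 FPKM of Cul4b in the wild type and 33.8, 37.0 and 30.4 after Zp3-Cre deletion. The 3-month oocytes held 54.6, 58.9 and 51.9 in the wild type and 36.0, 39.8 and 36.4 after Gdf9-Cre deletion. Each deletion library of both ages was below each wild-type library of its age, which 51% of all genes shared (in either direction) at 3 weeks and 68.4% at 3 months. Cul4b fell by 0.55 on the log2 scale at 3 months (SE 0.0794, adjusted p = 1.56e-05). At 3 weeks it fell by 0.23 (SE 0.0794, adjusted p = 0.0369). The 3-week call ended without any 1 of wild-type libraries 1, 2 and 3 and of deletion libraries 1 and 3, with adjusted p of 0.0153 to 0.195 over the 6 libraries left out, and also when only the 3-week groups were fitted (adjusted p = 0.0682).

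In zygotes, Cul4b stood at 111, 126 and 129.7 FPKM in the wild type and at 75.2, 78.8 and 77.6 after maternal deletion. The groups did not overlap, as for 55% of all genes, and the fall of 0.66 on the log2 scale (SE 0.0794, adjusted p = 9.65e-07) was the largest of the 6 genes at this stage. In 2-cell embryos, Cul4b was at 44.8 and 46.1 FPKM in the wild type and at 75.7, 75.5 and 69.6 after deletion. Here each deletion library was above both wild-type libraries, as groups were apart for 68.9% of all genes, and Cul4b rose by 0.68 ± 0.0888 (SE, adjusted p = 1.27e-06), or by 0.72 without deletion library 3. These 2 calls and the 3-month call held under both scalings. So did the 3-week call, at -0.33 and -0.32 (limma, adjusted p = 0.017 and 0.00748), although it ended in the other fits named above. The mean in deletion zygotes was 77.2 ± 1.84 FPKM and that in deletion 2-cell embryos 73.6 ± 3.47 (SD, n = 3 each), and their log2 difference was -0.07 ± 0.0794 (SE, adjusted p = 0.484 by limma with Benjamini-Hochberg adjustment). In wild type Cul4b fell over the same step, from 122 ± 9.74 to 45.5 ± 0.900 FPKM.

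Cul4a, the other scaffold, was the least abundant CRL4 transcript in each group except zygotes, where Dcaf13 was lower. The 3-week oocytes held 14.03, 14.7 and 12.4 FPKM of Cul4a in the wild type and 17.9, 17.4 and 18.0 after Zp3-Cre deletion. The 3-month oocytes held 12.6, 13.6 and 11.2 in the wild type and 16.5, 18.0 and 13.1 after Gdf9-Cre deletion. The 3-week groups were apart, as for 51% of all genes, and the 3-month groups overlapped. Neither comparison was called (log2 fold change 0.35 ± 0.134 with adjusted p = 0.0544, and 0.32 ± 0.134 with adjusted p = 0.0579). The 3-month value was 0.44 (adjusted p = 0.0168) without deletion library 3, and the 3-week comparison was called where only its groups were fitted and where genes needed an FPKM of at least 5. In zygotes, Cul4a was at 13.8, 15.9 and 14.2 FPKM in the wild type and at 19.6, 18.4 and 20.3 after deletion. The zygote groups were apart, as for 55% of all genes. Their log2 difference was 0.39 ± 0.134 (SE, adjusted p = 0.0233) in the deposited values, -0.20 after median-of-ratios scaling and -0.06 after quantile normalization. That call also ended without wild-type library 1 or 3 or deletion library 1 or 3 (adjusted p of 0.0225 to 0.0756 over the 6 libraries left out).

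In 2-cell embryos, Cul4a was at 4.98 and 5.33 FPKM in the wild type and at 8.64, 7.74 and 12.4 after deletion. Every deletion library was above both wild-type libraries, the highest being library 3, and groups were apart for 68.9% of all genes here. Cul4a rose by 0.76 ± 0.150 (SE, adjusted p = 0.00017), and by 0.58 (adjusted p = 0.000594) without library 3. Both scalings kept this call.

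The pair of scaffolds was also compared as the ratio of Cul4b to Cul4a FPKM within each library. In 3-week oocytes the ratio was 2.76, 2.78 and 3.14 in the wild type and 1.89, 2.13 and 1.69 after deletion. In 3-month oocytes it was 4.32, 4.33 and 4.63 in the wild type and 2.19, 2.21 and 2.78 after deletion, and in zygotes 8.06, 7.93 and 9.16 against 3.85, 4.29 and 3.83. At these 3 stages each deletion library was below each wild-type library. In 2-cell embryos the ratio was 9.005 and 8.65 in the wild type and 8.76, 9.75 and 5.60 after deletion, and the groups overlapped. On the log2 scale (pseudocount 1), the deletion groups differed from wild type by -0.58, -0.86, -1.04 and -0.08 in the order of the 4 stages. The sign at the 2-cell stage rested on deletion library 3. That library was at 2.39, deletion libraries 1 and 2 at 2.99 and 3.13, and the wild-type libraries at 2.94 and 2.90. The mean of the 4 stage differences was -0.64 (exact permutation test within stages, two-sided, p = 0.000188 over 80000 labelings, where the smallest possible p is 1.25e-05). It lay between -0.68 and -0.58 with any 1 library left out. With no pseudocount, where a factor applied to a whole library cancels, it was -0.69 (exact permutation p = 0.000113). Ratios of other gene pairs were not tested. In the average of the 4 deletion effects 66.4% of all genes were called (43.6% higher, 22.8% lower). The p-value therefore does not show that the shift is particular to this pair.

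**Figure D2:**
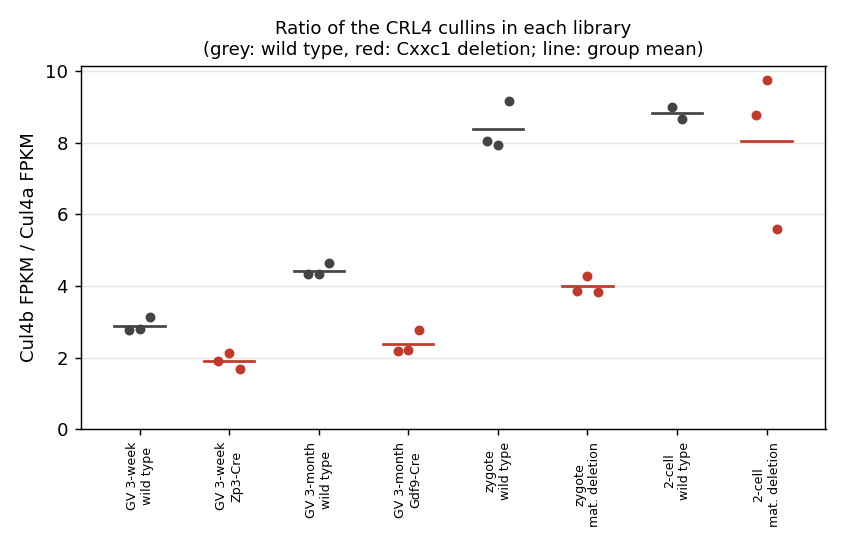
Ratio of Cul4b to Cul4a FPKM (vertical axis) in each library by group, grey for wild type and red for Cxxc1 deletion, with a line at the group mean. Deletion libraries lie below wild-type libraries in oocytes of both ages and in zygotes and overlap them in 2-cell embryos, where deletion library 3 is at 5.60.

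Rbx1, the RING subunit that other cullins use as well, was called in 1 deletion comparison. The 3-week oocytes held 34.03, 36.0 and 34.1 FPKM of Rbx1 in the wild type and 34.4, 42.2 and 42.1 after Zp3-Cre deletion, which overlapped. The 3-month oocytes held 31.2, 23.9 and 27.6 in the wild type and 47.8, 47.7 and 40.8 after Gdf9-Cre deletion. The 3-month groups were apart, as for 68.4% of all genes, and Rbx1 rose by 0.71 ± 0.133 on the log2 scale (SE, adjusted p = 0.000226), also under both scalings. Zygotes held 36.5, 36.6 and 29.9 FPKM in the wild type and 26.0, 30.7 and 29.0 after deletion. These groups overlapped, with a log2 difference of -0.25 ± 0.133 (SE, adjusted p = 0.129), which was called lower with median-of-ratios scaling (-0.86) and with quantile normalization (-0.51). The 2-cell embryos held 35.8 and 30.6 FPKM in the wild type and 39.3, 52.3 and 35.6 after deletion, overlapping groups with a log2 difference of 0.33 ± 0.148 (SE, adjusted p = 0.0589), which became 0.44 (adjusted p = 0.014) without deletion library 3. Mean Rbx1 ran from 45.4 ± 3.99 FPKM in Gdf9-Cre oocytes to 27.6 ± 3.70 in 3-month wild-type oocytes (SD, n = 3), and in the order of the 8 groups each pair of neighbours overlapped.

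Ddb2, the damaged-DNA receptor, showed the largest rises of the 6 genes. The 3-month oocytes held 14.8, 16.2 and 13.6 FPKM of Ddb2 in the wild type and 40.4, 36.3 and 37.98 after Gdf9-Cre deletion. The lowest deletion library was far above the highest wild-type library, in a comparison where groups were apart for 68.4% of all genes. Ddb2 rose 2.58-fold in mean FPKM (log2 fold change 1.31 ± 0.156, SE, adjusted p = 1.67e-06). In 2-cell embryos, Ddb2 was at 8.29 and 6.88 FPKM in the wild type and at 19.6, 24.5 and 14.1 after deletion. All 3 deletion libraries were above the wild type, as groups were apart for 68.9% of all genes. Ddb2 rose 2.56-fold (log2 fold change 1.22 ± 0.175, SE, adjusted p = 4.19e-06), with a log2 fold change of 1.42 without deletion library 3. Both calls held under both scalings and with any 1 library left out.

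In 3-week oocytes, Ddb2 was at 18.6, 14.8 and 18.3 FPKM in the wild type, against 19.8, 20.04 and 26.8 in Zp3-Cre oocytes. Although these groups were apart, as for 51% of all genes, the log2 fold change of 0.34 ± 0.156 was not called (SE, adjusted p = 0.112). Zygotes held 29.4, 34.2 and 27.4 FPKM in the wild type and 38.1, 36.2 and 42.3 after deletion, again apart, as for 55% of all genes. The log2 difference of 0.35 ± 0.156 (SE, adjusted p = 0.0746) turned to -0.25 with median-of-ratios scaling and to 0.02 with quantile normalization. Without wild-type library 2 the zygote value was 0.44 (adjusted p = 0.0498). By mean FPKM, Ddb2 was highest in deletion zygotes (38.9 ± 3.10) and Gdf9-Cre oocytes (38.2 ± 2.01), whose libraries overlapped, and lowest in wild-type 2-cell embryos (7.59 ± 1.00, n = 2). Between them lay wild-type zygotes, apart from their neighbours, and then Zp3-Cre oocytes, deletion 2-cell embryos and 3-week and 3-month wild-type oocytes, each overlapping the next.

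Dcaf13, the nucleolar receptor, was called in both wild-type stage comparisons and in none of the deletion comparisons. The 3-week oocytes held 58.0, 61.9 and 55.6 FPKM of Dcaf13 in the wild type and 64.8, 74.4 and 64.4 after Zp3-Cre deletion. The 3-month oocytes held 56.0, 56.7 and 55.2 in the wild type and 54.8, 58.4 and 63.9 after Gdf9-Cre deletion. The 3-week groups were apart, as for 51% of all genes, and the 3-month groups overlapped. Their log2 fold changes were 0.21 ± 0.201 and 0.07 ± 0.201 (SE, adjusted p = 0.483 and 0.797), the latter being -0.16 and -0.12 under the scalings. Zygotes held 7.03, 10.6 and 5.11 FPKM in the wild type and 9.45, 9.07 and 8.75 after deletion. The groups overlapped, with a log2 difference of 0.28 ± 0.201 (SE, adjusted p = 0.279) that was below 0 under both scalings (-0.27 and -0.21) and was 0.53 (adjusted p = 0.0335) without wild-type library 2. The 2-cell embryos held 24.8 and 24.9 FPKM in the wild type and 32.6, 33.3 and 16.9 after deletion, where library 3 was the low one. That log2 fold change was 0.08 ± 0.225 (SE, adjusted p = 0.764), below 0 under both scalings (-0.18 and -0.02), and 0.39 (adjusted p = 0.0571) without library 3.

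**Figure D3:**
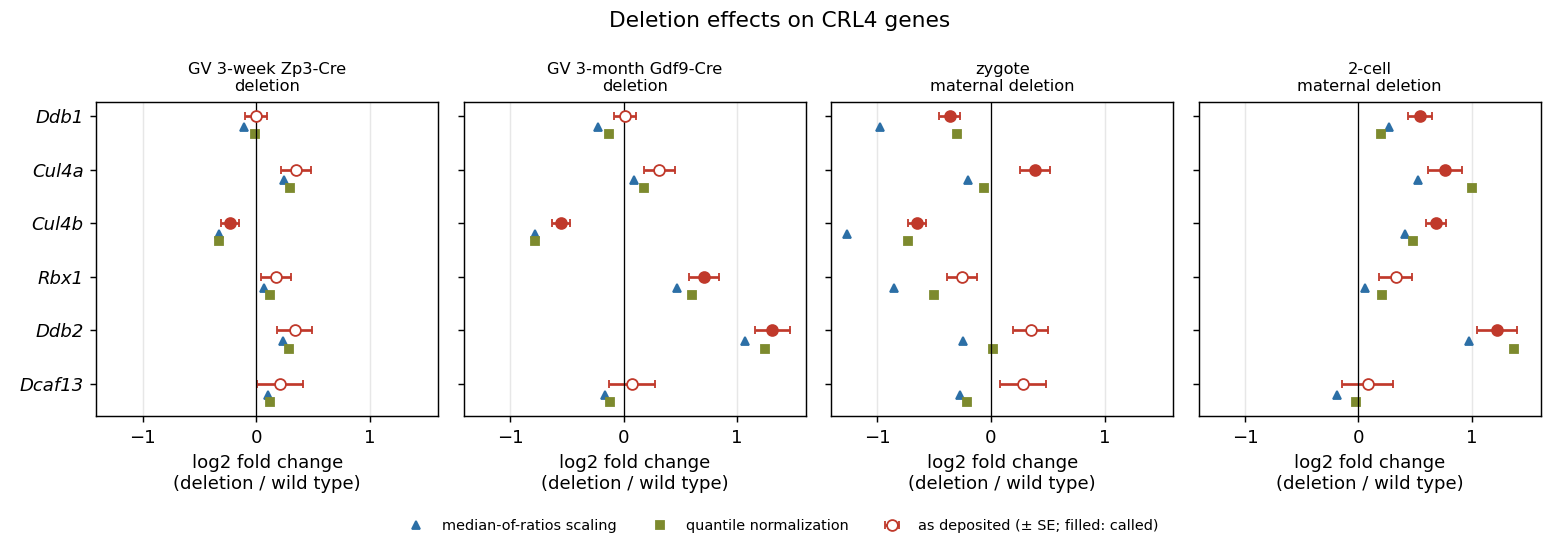
Log2 fold change of each CRL4 gene after Cxxc1 deletion (horizontal axis, 1 panel per comparison) in the deposited values (red circles, ± SE, filled where called) and after median-of-ratios scaling (triangles) and after quantile normalization (squares). The scalings turn the sign of Ddb1 and Dcaf13 in 3-month oocytes, of Cul4a and Dcaf13 in zygotes (and of Ddb2 there under median-of-ratios scaling) and of Dcaf13 in 2-cell embryos, and Cul4b keeps its direction in all 4 panels.

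The difference between deletion effects was tested in the same model. From 3-week oocytes to zygotes, 2 of the 6 genes differed in effect, both downward, against 29.4% of all genes (22.4% upward, 7.01% downward), Cul4b by -0.43 (adjusted p = 0.00653) and Ddb1 by -0.36 (adjusted p = 0.0481). The Ddb1 call ended in 9 of the 12 fits that left out 1 library (adjusted p of 0.0235 to 0.14). Among these it held only without Zp3-Cre library 3, wild-type zygote library 3 or deletion zygote library 3. It also ended under quantile normalization, with no low-value filter and with the replicate number as a block. For Rbx1 the difference was -0.43 (adjusted p = 0.0954), and it was called with median-of-ratios scaling (-0.93, adjusted p = 0.00176), with quantile normalization (-0.63, adjusted p = 0.0139) and where only the groups compared were fitted. From zygotes to 2-cell embryos, 4 genes differed, all upward, against 53.9% of all genes (21.5% upward, 32.4% downward). Cul4b differed by 1.34 ± 0.119 (adjusted p = 1.34e-08), Ddb1 by 0.91 ± 0.142 (adjusted p = 1.95e-05), Ddb2 by 0.87 ± 0.234 (adjusted p = 0.00371) and Rbx1 by 0.58 ± 0.199 (SE, adjusted p = 0.0183). The scaffold and the adaptor thus went from lower to higher than wild type between these stages, although the 2-cell call of Ddb1 itself ended under both scalings. The Rbx1 difference was not called without wild-type 2-cell library 2 or deletion 2-cell library 2, at 0.42 to 0.70 over the libraries left out. It was not called either where only the groups compared were fitted (adjusted p = 0.0563). For Cul4a the difference was 0.37 (adjusted p = 0.127), and it was called under both scalings and without deletion 2-cell library 2 (0.50, adjusted p = 0.0368). The comparisons of this paragraph share the zygote libraries.

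Between the oocyte models, 1 gene differed, upward, against 4.89% of all genes (3.2% upward, 1.68% downward). The effect on Ddb2 was larger by 0.97 ± 0.221 in 3-month Gdf9-Cre than in 3-week Zp3-Cre oocytes (SE, adjusted p = 0.0172), a call that median-of-ratios scaling ended (0.83, adjusted p = 0.0736). Age and Cre differ together between these models, and their parts in this difference cannot be told apart. The difference for Rbx1 was 0.53 ± 0.188 (adjusted p = 0.114) and that for Cul4b -0.32 ± 0.112 (adjusted p = 0.11, and 0.046 without Zp3-Cre library 3). In the average of the 4 deletion effects, 4 genes were called (3 higher, 1 lower), against 66.4% of all genes (43.6% higher, 22.8% lower). Their log2 values were 0.81 for Ddb2, 0.45 for Cul4a, 0.24 for Rbx1 and -0.19 for Cul4b. Quantile normalization and median-of-ratios scaling ended the Rbx1 call, the latter at -0.06. Ddb1, at 0.05 and not called in the deposited values, was called lower with median-of-ratios scaling (-0.26, adjusted p = 0.00168) and was at -0.06 with quantile normalization. Leaving out wild-type zygote library 2 or deletion 2-cell library 3 added Dcaf13 to the genes called higher in this average (up to 0.24).

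In wild type, the CRL4 genes changed strongly between the stages. From 3-week GV oocytes to zygotes 4 of the 6 were called (3 higher, 1 lower), against 70.1% of all genes, 19.4% higher and 50.7% lower. Cul4b rose 3.10-fold (log2 fold change 1.60 ± 0.0794), Ddb1 1.83-fold (0.86 ± 0.0948) and Ddb2 1.76-fold (0.78 ± 0.156). Dcaf13 fell by 2.84 on the log2 scale (SE 0.201, adjusted p = 1.02e-10). Over all genes the median of this comparison was -0.47, and median-of-ratios scaling and quantile normalization moved it by 0.43 and 0.55, and the split of all calls from 2674 higher and 6985 lower to 4674 and 4987 and to 5162 and 4403. Under both scalings Cul4a (0.97 and 1.01) and Rbx1 (0.89 and 0.57) were called higher too, against 0.09 and -0.02 in the deposited values. With 3-month oocytes as the start Rbx1 was called higher at 0.31, and the Cul4b rise was smaller, at 1.14 on the log2 scale.

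From wild-type zygotes to 2-cell embryos 5 of the 6 genes were called (1 higher, 4 lower), against 68.5% of all genes, 44.5% higher and 24% lower. Ddb2 fell by 1.87, Ddb1 by 1.69, Cul4b by 1.41 and Cul4a by 1.34 on the log2 scale, all with adjusted p of at most 1.11e-07 by limma with Benjamini-Hochberg adjustment. Dcaf13 rose by 1.64 ± 0.225 (SE, adjusted p = 1.82e-06). Rbx1 was at -0.04 ± 0.148 and not called, and was called lower under median-of-ratios scaling (-0.48). Between the wild-type oocytes of the 2 ages, Cul4b was the only CRL4 gene called, against 3.95% of all genes (2.25% higher, 1.7% lower). It was higher at 3 months by 0.47 ± 0.0794 (SE, adjusted p = 0.00149), and the call held under each alternative run. Its libraries were apart, which was not counted over all genes for this comparison.

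Among deletion libraries, the same steps gave other values for some members. From Zp3-Cre oocytes to deletion zygotes 5 genes were called (3 higher, 2 lower), against 64.9% of all genes (21.9% higher, 43% lower), and from deletion zygotes to deletion 2-cell embryos also 5 (2 higher, 3 lower), against 50% of all genes (32.7% higher, 17.3% lower). Cul4b rose by 1.18 in the first step, and Dcaf13 fell by 2.77. In the second step, Dcaf13 rose by 1.44 and Rbx1 by 0.54, and Cul4a fell by 0.97, Ddb2 by 1.00 and Ddb1 by 0.79.

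Because FPKM is per length, levels can be set side by side between the genes. In 3-week wild-type oocytes the order was Ddb1 (179 FPKM), Dcaf13 (58.5), Cul4b (39.6), Rbx1 (34.7), Ddb2 (17.3) and Cul4a (13.7), with no overlap between neighbours. In wild-type zygotes it was Ddb1 (327), Cul4b (122), Rbx1 (34.3), Ddb2 (30.3), Cul4a (14.6) and Dcaf13 (7.58), with overlap between Rbx1 and Ddb2. Over the 23 libraries, Pearson's r of log2(FPKM + 1) was -0.87 between Cul4b and Dcaf13, 0.74 between Ddb2 and Cul4a and 0.72 between Ddb1 and Ddb2, and it was 0.01 between the scaffolds Cul4a and Cul4b. These are descriptions, since libraries of a group are not independent points and differ by stage.

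Of 7587 genes with a mean FPKM of at least 5, those with the pattern most like each CRL4 gene were ranked by the same r over 23 libraries. For Cul4b they were Rev1 (0.97), Usp9x (0.97) and 1700066M21Rik (0.97), and for Ddb1 Troap (0.97), Nol10 (0.97) and Phf13 (0.97). For Dcaf13 they were Rfc2 (0.98), Thap4 (0.98) and Apitd1 (0.97). Med22 (0.96), Sc5d (0.94) and Kbtbd4 (0.94) came first for Ddb2, and Slc23a2 (0.94), Hdac3 (0.94) and Ndfip1 (0.94) for Cul4a. Rbx1 had no gene as close, with Nfu1 (0.82), Fgfr1op2 (0.80) and Fars2 (0.79). Usp9x, for example, was at 52.4, 150 and 52.7 FPKM in wild-type 3-week oocytes, zygotes and 2-cell embryos and at 43.7, 118 and 95.0 in the matching deletion groups.

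The genes that act with or beside the CRL4 subunits were described as 6 lists. Over all genes, 29.6%, 49.5%, 46.7% and 66.5% were called in the 4 deletion comparisons, from 3-week oocytes to 2-cell embryos. Over the 2 wild-type steps 70.1% and 68.5% were called. A list count near these shares is not in itself a result about the list. In deletion comparisons of the lists, rose and fell mean higher and lower than wild type at the same stage. Of 28 other substrate receptors and DDB1 partners, 26 were tested. In deletion oocytes, 6 were called higher and 6 lower at 3 weeks, and 10 and 8 at 3 months. The scalings gave 3 and 6 and then 6 and 6 at 3 weeks, and 4 and 8 and then 5 and 8 at 3 months. In deletion zygotes 12 were higher and 3 lower, with a median log2 fold change of 0.27 against 0.22 over all genes, which became -0.27 (2 higher, 11 lower) with median-of-ratios scaling and -0.09 (5 and 6) with quantile normalization. In deletion 2-cell embryos 12 were higher and 1 lower (median 0.14), which became 10 and 6 (median -0.05) with median-of-ratios scaling and 10 and 2 (median 0.21) with quantile normalization. Crbn, the cereblon receptor, rose in 2-cell embryos from 4.35 ± 0.807 (n = 2) to 23.7 ± 4.197 FPKM (SD, n = 3), and Dcaf6 from 10.1 ± 2.37 to 42.3 ± 0.914. Dcaf5 rose in oocytes of both ages, from 19.2 ± 0.677 to 40.3 ± 3.60 FPKM at 3 weeks and from 26.0 ± 2.71 to 52.7 ± 0.657 at 3 months, while Dcaf17 fell in both. The gene of DCAF1, listed as Vprbp and named here after its values were seen, fell in oocytes (log2 fold change -0.29 at 3 weeks and -0.74 at 3 months, adjusted p = 0.0217 and 1.94e-06) and was called higher in zygotes (0.38, adjusted p = 0.00144), where the scalings gave -0.21 and -0.05. Its 2-cell value was 0.02 (adjusted p = 0.902 by limma with Benjamini-Hochberg adjustment).

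The COP9 signalosome removes NEDD8 from cullins and so switches the ligases off, and its 10 genes moved with stage. In wild type, 7 fell and 1 rose from 3-week oocytes to zygotes (median -2.41 against -0.47 over all genes), against 50.7% and 19.4% of all genes. Median-of-ratios scaling gave 6 lower and 4 higher (median -1.60) and quantile normalization 6 and 3 (median -1.43). Among those that fell was Cops6, from 78.9 ± 6.32 to 3.15 ± 0.797 FPKM (SD, n = 3). From zygotes to 2-cell embryos 8 rose and 2 fell (median 1.37 against 0.31), against 44.5% and 24% of all genes, with medians of 1.05 and 0.90 after the scalings. In deletion zygotes 8 were called higher and 1 lower than in wild type (median 0.91 against 0.22), against 35.3% and 11.4% of all genes, or 5 and 2 under each scaling. Cops5, the catalytic subunit, rose from 3.87 ± 0.769 to 27.1 ± 2.24 FPKM there and from 9.65 ± 0.228 to 39.6 ± 4.38 in 2-cell embryos. In the 2-cell comparison 6 of the list were higher and 2 lower (5 and 3, and 6 and 3, with the scalings), against 37.1% and 29.4% of all genes. In deletion oocytes 2 rose at 3 weeks and 5 at 3 months, none fell, and the 3-week rises ended under median-of-ratios scaling. The 3-month count was 2 with median-of-ratios scaling and 4 with quantile normalization. At these ages 29.6% and 49.5% of all genes were called. The wild-type stage comparisons and the zygote deletion comparison share the wild-type zygote libraries.

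Of 14 genes for NEDD8, its conjugation and cullin exchange, 13 were tested. Nedd8 itself, the modifier that activates cullins, rose in deletion oocytes from 131 ± 6.43 to 178 ± 2.18 FPKM at 3 weeks and from 96.3 ± 3.33 to 182 ± 13.9 at 3 months, and in deletion zygotes from 24.4 ± 3.11 to 153 ± 9.76 (SD, n = 3). The list as a whole had 3 higher and 1 lower, 4 and 1, 7 and 3, and 8 and 2 in the 4 deletion comparisons. Of all genes, 29.6%, 49.5%, 46.7% and 66.5% were called in these. The zygote split of 7 and 3 turned to 4 and 7 with median-of-ratios scaling and to 4 and 5 with quantile normalization, and the 3-month split to 3 and 4 and to 2 and 3. In wild type it had 6 higher and 4 lower from oocyte to zygote (median 0.25), or 9 and 4 under each scaling (medians 1.09 and 0.95). From zygote to 2-cell embryo it had 5 and 5, or 4 and 6 and then 6 and 7 with the scalings. Over these 2 steps 70.1% and 68.5% of all genes were called. Of the 12 genes for other cullins and their RING and adaptor subunits, 4 were higher and 1 lower, 6 and 2, 6 and 3, and 4 and 5 in the deletion comparisons, and 3 and 7 and then 7 and 3 over the wild-type stages. The first of these wild-type splits became 4 and 4 and then 5 and 4 with the scalings in the same order, and the second 7 and 5 and then 5 and 5. The 3-month deletion split became 2 and 2 and then 3 and 3. Tceb2 and Tceb1, the elongin adaptors of the CUL2 and CUL5 ligases, were higher in deletion than in wild-type zygotes. They stood at 39.7 ± 4.24 against 4.35 ± 0.194 and at 186 ± 19.2 against 26.5 ± 1.42 FPKM. Their means were 36.6 and 201 FPKM in 3-week wild-type oocytes and 66.8 and 220 in Zp3-Cre oocytes. Skp1a, the adaptor of the CUL1 ligases, was higher in deletion than in wild-type 2-cell embryos, at 1002 ± 99.4 against 77.9 ± 2.73 FPKM (n = 2). Mean Skp1a was 897 FPKM in 3-week wild-type and 1097 in Zp3-Cre oocytes, and 146 in wild-type and 535 in deletion zygotes. Vhl, a receptor of the CUL2 ligase, was lower in deletion 2-cell embryos, at 1.21 ± 0.402 against 23.7 ± 1.34 FPKM. Mean Vhl was 0.283 in wild-type and 0.322 in deletion zygotes.

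**Figure D4:**
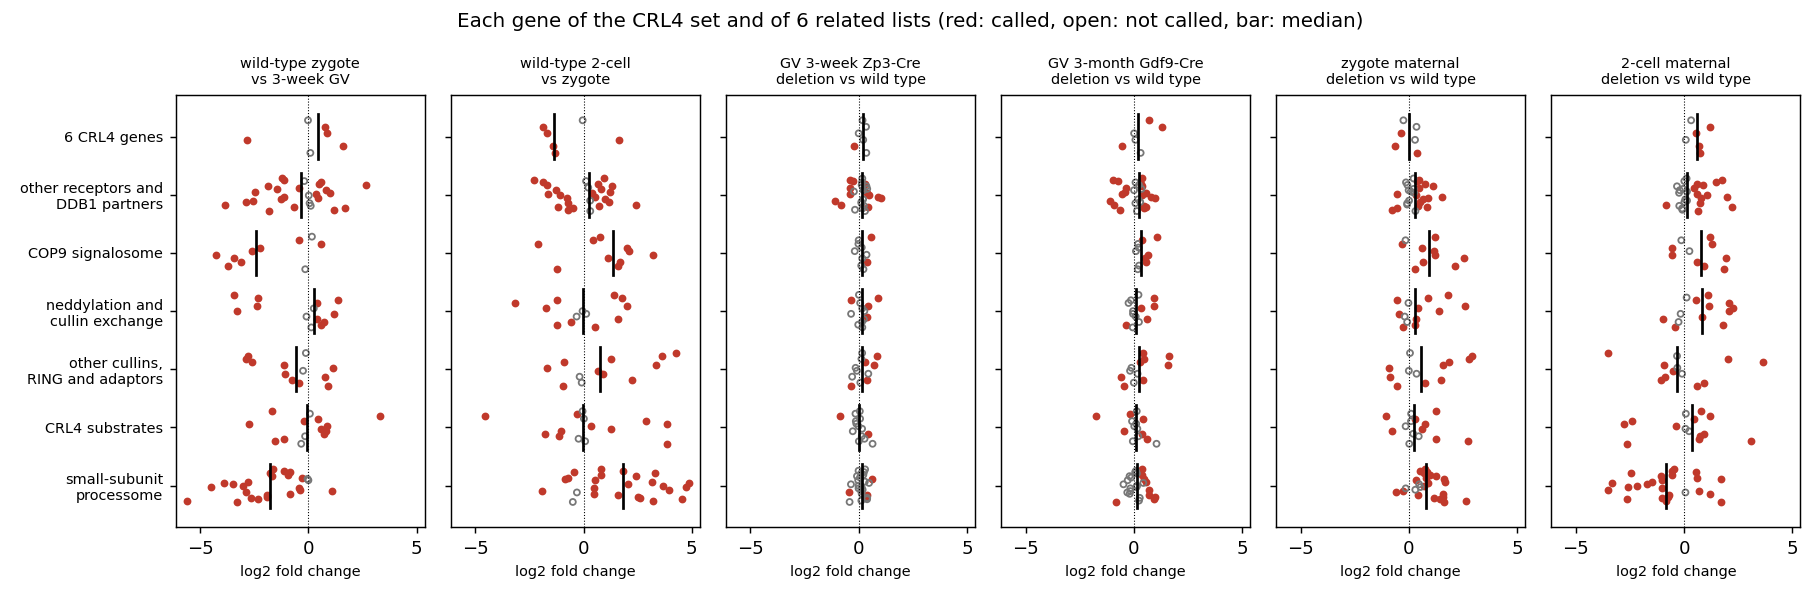
Log2 fold change (horizontal axis) of every tested gene of the CRL4 set and of the 6 related lists in 6 comparisons, red where called, open where not, with a bar at the list median. In the deposited values plotted, COP9 signalosome and small-subunit processome medians lie at -2.41 and -1.78 from 3-week oocyte to wild-type zygote and at 1.37 and 1.82 from zygote to 2-cell embryo.

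Of 14 known CRL4 substrates, 1 was higher and 1 lower in 3-week deletion oocytes, 3 and 3 in 3-month oocytes, 6 and 2 in zygotes and 7 and 4 in 2-cell embryos. The shares of all genes called were 29.6%, 49.5%, 46.7% and 66.5% in the same order. The scalings gave 1 and 3 and then 1 and 4 for 3-month oocytes, and 3 and 5 and then 3 and 3 for zygotes. Over the wild-type stages 6 rose and 5 fell, and then 5 and 5, where 70.1% and 68.5% of all genes were called. From oocyte to zygote the scalings gave 8 higher and 3 lower and then 7 and 3. The median of -0.04 there became 0.74 and 0.25. From zygote to 2-cell embryo they gave 4 and 7 and then 5 and 7. Suv39h1, the substrate of DCAF13 in the mouse, went from 15.7 ± 0.908 FPKM in 3-week wild-type oocytes to 1.51 ± 0.302 in zygotes and 35.7 ± 4.33 in 2-cell embryos. After maternal deletion the 2-cell level was 4.34 ± 0.949 (log2 fold change -2.79, adjusted p = 1.28e-11). Cdt1, the replication licensing factor, rose in deletion zygotes from 56.7 ± 8.69 to 136 ± 9.46 FPKM, and Cdkn1b, a cell cycle inhibitor, from 3.18 ± 1.10 to 26.1 ± 6.16. Tet3, the dioxygenase that acts on 5-methylcytosine in the zygote, fell in deletion oocytes of both ages, from 58.4 ± 5.99 to 31.1 ± 1.17 and from 69.1 ± 1.32 to 19.8 ± 1.85 FPKM (SD, n = 3).

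The small-subunit processome, the nucleolar assembly in which DCAF13 takes part, was represented by 25 genes, all tested. In wild type 22 fell and 1 rose from oocyte to zygote (median -1.78 against -0.47 over all genes), where 50.7% of all genes were called lower and 19.4% higher. The split was 15 and 5 with median-of-ratios scaling (median -1.002) and 18 and 5 with quantile normalization (median -0.89). From zygote to 2-cell embryo 19 rose and 4 fell (median 1.82 against 0.31 over all genes), where 44.5% of all genes were called higher and 24% lower. The split was 16 and 6 (median 1.397) and 15 and 6 (median 1.27) with the scalings. Dcaf13 was called in the same direction as most of these 25 genes at both steps. In deletion zygotes 19 were called higher and 2 lower (median 0.79 against 0.22 over all genes), against 35.3% and 11.4% of all genes. The split was 12 and 3 under each scaling, whereas Dcaf13 was not called. In deletion 2-cell embryos 18 were lower and 6 higher (median -0.82 against 0.16), against 29.4% and 37.1% of all genes, with 18 lower also without library 3. Nol11 was at 0.963 ± 0.208 FPKM there against 21.2 ± 0.202 in wild type, and Tbl3 at 2.61 ± 1.29 against 33.8 ± 2.80 (SD, n = 3 against n = 2). Dcaf13 was at 0.08 on the log2 scale in this comparison. Wild-type and deletion zygotes held 0.456 and 0.786 FPKM of Nol11 and 0.207 and 1.23 of Tbl3. In deletion oocytes 3 were higher and 1 lower at 3 weeks, against 29.6% of all genes called, and 8 and 1 at 3 months, against 49.5%. Median-of-ratios scaling turned the latter to 4 higher and 9 lower, and quantile normalization to 4 and 8.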

How the data were processed

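Bulk RNA-seq of oocytes and embryos (23 libraries) was analysed from a table of FPKM values that the authors deposited, with 1 column per library. Per the labels' protocols, cells were lysed in RLT buffer, RNA was purified with the RNeasy micro kit and libraries were made with the NEBNext Ultra RNA kit. The submitters' processing notes name CASAVA 1.4, TopHat2 2.0.12, Cufflinks 2.2.1 and SAMtools. The mm10 and mm9 builds are both named there with no role, so no gene coordinates of the table are given. Strand and annotation: not given in the sources used here. Read depth is unknown, since FPKM carries none, and no counting interval is given. Bisulfite data were not analysed here.

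From the deposited FPKM, log2(FPKM + 1) was fitted with limma 3.58.1 (R 4.3.3, mean trend, empirical Bayes) over 13776 of 24506 genes that reached an FPKM of 1 in 2 libraries, with 1 mean for each of the 8 groups, no covariate and 15 residual degrees of freedom. P-values were adjusted by Benjamini-Hochberg over all genes tested, and a gene was called under 0.05. A log2 fold change on this scale understates the change of low genes. The fit was tested on simulated data. Named genes of the related lists were at most 2 per list and comparison, those called with the largest change and a mean of at least 5 FPKM, and other genes named are said to be so. The CRL4 genes and the lists were chosen with earlier results of these data known. Alternatives were a pseudocount of 0.1, no filter and a filter of 5 FPKM, 2 scalings of the libraries (median-of-ratios, with 10949 genes, and quantile), a fit on only the groups compared, the replicate number as a block, and leaving out each library. numpy 2.4.6, pandas 2.3.3, scipy 1.17.1 and matplotlib 3.10.9 were used for the rest.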

Additional observations from a re-analysis of the deposited data

Results flagged for a closer look

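The deletion effect on some CRL4 genes differed between stages or between oocyte models by a test of the difference itself. Cul4b differed by -0.43 on the log2 scale between zygotes and 3-week GV oocytes. Ddb1 differed by -0.36 between the same stages (limma, adjusted p = 0.0481). That call held in 3 of 12 fits with 1 library left out. It ended with no low-value filter, with quantile normalization and with the replicate number as a block. From zygotes to 2-cell embryos the effect on Cul4b differed by 1.34. That on Ddb1 differed by 0.91, that on Ddb2 by 0.87 and that on Rbx1 by 0.58. The Rbx1 call ended without wild-type or deletion 2-cell library 2 and where only the groups compared were fitted. Between 3-month Gdf9-Cre and 3-week Zp3-Cre oocytes, the effect on Ddb2 differed by 0.97. Median-of-ratios scaling ended that call, at 0.83.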

How the results depend on the processing

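With no read depth in FPKM, the precision rests on 3 libraries a group, and 2 in wild-type 2-cell embryos. Signs turned for Cul4a in zygotes and Rbx1 in the average of deletion effects, both called in the deposited values, and for values that were not called. With the 2 scalings, median-of-ratios first and quantile second, the turned values were Ddb1 (-0.23 and -0.13) and Dcaf13 (-0.16 and -0.12) in 3-month oocytes, Cul4a (-0.20 and -0.0614) and Dcaf13 (-0.27 and -0.21) in zygotes, Dcaf13 in 2-cell embryos (-0.18 and -0.0173) and Rbx1 from 3-week oocyte to wild-type zygote (0.89 and 0.57, and 0.31 from 3-month oocytes). Also turned were Ddb1 (-0.26 and -0.0592) and Dcaf13 (-0.13 and -0.0562) in the average of deletion effects. In the difference between zygotes and 3-week oocytes, Cul4a (-0.45 and -0.36), Ddb2 (-0.49 and -0.27) and Dcaf13 (-0.38 and -0.33) turned, and between oocyte models Ddb1 (-0.12 and -0.12), and Dcaf13 from zygote to 2-cell effects (0.0868 and 0.19). Median-of-ratios scaling alone turned Ddb2 in zygotes (-0.25) and Rbx1 in the average (-0.0649). Leaving out 1 library gave -0.0303 to 0.041 for Ddb1 in 3-week oocytes, -0.0795 to 0.39 for Dcaf13 in 2-cell embryos, and for Rbx1 -0.0701 to 0.0724 from oocyte to zygote and -0.15 to 0.0673 from zygote to 2-cell embryo in wild type. The cause was not tested.

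The number of CRL4 genes called in 3-week oocytes was 2 with a filter of 5 FPKM. In zygotes it was 4 with only the groups compared, and in 2-cell embryos 3 with either scaling. In the average it was 3 with quantile normalization. For the difference between zygotes and 3-week oocytes it was 1 without a filter, 3 with median-of-ratios scaling and 3 with only the groups compared. For that between 2-cell embryos and zygotes it was 5 with either scaling and 3 with only the groups compared. Over the wild-type steps it was 6 with either scaling and 5 with the 3-month start from oocyte to zygote, and 6 with median-of-ratios scaling from zygote to 2-cell embryo. For the difference between oocyte models it was 0 under median-of-ratios scaling, 2 under quantile normalization and 2 with only the groups compared. With 1 library left out the numbers ran from 0 to 1 in 3-week oocytes, 3 to 4 in 3-month oocytes, 2 to 5 in zygotes (5 without wild-type library 2), 4 to 5 in 2-cell embryos, 4 to 5 in the average, 1 to 2 for zygote against oocyte effects, 3 to 4 for 2-cell against zygote effects and 1 to 2 between oocyte models. The scalings (median-of-ratios, then quantile) moved the split of all calls, higher and lower, from 2524 and 1557 to 1575 and 1844 and to 1741 and 1872 in 3-week oocytes, from 4718 and 2100 to 2912 and 3085 and to 2822 and 3236 in 3-month oocytes, and from 4860 and 1571 to 2775 and 4061 and to 2817 and 3498 in zygotes. In 2-cell embryos 5112 and 4047 became 4160 and 4860 and then 5207 and 4079, and from wild-type zygote to 2-cell embryo 6134 and 3307 became 5329 and 4541 and then 4415 and 5764.

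Same-numbered libraries did not deviate together (correlations of -0.07 to 0.06), and the main fit did not pair them. With so few libraries in a group, such correlations cannot exclude a shared batch. The replicate block gave 5 CRL4 genes called in 2-cell embryos and 1 for the difference between zygotes and 3-week oocytes.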
